A study of Homo sapiens with 15 samples.

Results

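Interferon-stimulated genes are the genes that cells switch on when they sense a virus or receive an interferon signal. A list of 43 such genes was described in RNA-seq of HSSYII cells. Each gene was found by its symbol in the deposited count tables, keeping the one transcript row with the highest count sum over all libraries, and all 43 were found among the 25681 genes listed there.

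HSSYII cells derive from a human synovial sarcoma and express SS18-SSX1, the fusion oncoprotein of this tumour, which sits in a SWI/SNF chromatin remodelling complex together with BRD9. The study asked how gene expression responds when either protein is lost. DMSO cells received the vehicle at 0.0001% for 6 hr, and dBRD9-A cells received 100 nM dBRD9-A, a small molecule that makes cells degrade the BRD9 protein, for 6 hr. The shRenilla, shSS18-SSX1-1 and shSS18-SSX1-2 cells were harvested 96 hr after infection with a lentivirus, at a multiplicity of infection of 1.0, that carries GFP and a short hairpin RNA, against Renilla luciferase as a control or against the fusion, and no drug selected the infected cells. Each group had 3 libraries from this one cell line. The labels do not say whether the 3 came from separate cultures, so each p-value measures the spread between libraries, which may be technical.

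Viral RNA in the cytoplasm is recognised by helicases such as RIG-I and MDA5, and foreign or misplaced DNA by cGAS and STING. These sensors lead to the secretion of type I interferons, which bind IFNAR1 and IFNAR2, activate the kinases JAK1 and TYK2 and drive a complex that contains STAT2 and IRF9 to a promoter element called the interferon-stimulated response element (ISRE). Many of the induced proteins block a step of viral replication, and several sensors and transcription factors of the pathway are themselves induced.

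The promoter element is shown for 8 members, chosen because the stretch around it carries no annotated exon: 6 whose transcripts rose more than 4-fold when SS18-SSX1 was knocked down and 2, PARP12 and PARP14, that rose less. Sequences run 5′ to 3′ on the strand of the gene, and capitals mark every match to the ISRE core GAAANNGAA on either strand, which reads as TTCNNTTTC on the other one. They come from RefSeq promoters (GRCh38.p14), and their positions are those of the single exact match in GRCh37, the build of the counts.
IFIT3, chr10:91087569-91087671, plus strand, in an intron of longer transcripts of IFIT3 and LIPA: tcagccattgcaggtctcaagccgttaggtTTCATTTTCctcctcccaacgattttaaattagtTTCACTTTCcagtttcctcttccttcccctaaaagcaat
ISG15, chr1:948734-948814, plus strand, in an intron of a longer transcript: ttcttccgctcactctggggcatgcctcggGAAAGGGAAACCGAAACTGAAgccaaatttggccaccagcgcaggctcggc
IFITM3, chr11:320861-320942, minus strand, in an intron of a longer transcript: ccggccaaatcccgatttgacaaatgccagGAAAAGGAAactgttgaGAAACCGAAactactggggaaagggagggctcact
IFI6, chr1:27998758-27998889, minus strand, upstream of the gene and inside ENSG00000225886: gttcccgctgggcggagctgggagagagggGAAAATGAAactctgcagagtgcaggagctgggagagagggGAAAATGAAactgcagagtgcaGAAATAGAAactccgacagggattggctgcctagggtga
IFI44, chr1:79115427-79115473, plus strand, upstream of the gene: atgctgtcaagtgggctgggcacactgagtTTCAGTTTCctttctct
SAMD9, chr7:92747390-92747458, minus strand, upstream of the gene: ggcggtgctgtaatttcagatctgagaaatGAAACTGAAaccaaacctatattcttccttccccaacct
PARP12, chr7:139762752-139762790, minus strand, upstream of the gene: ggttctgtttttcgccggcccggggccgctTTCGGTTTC
PARP14, chr3:122399627-122399685, plus strand, upstream of the gene: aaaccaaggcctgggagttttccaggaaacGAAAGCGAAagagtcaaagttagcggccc
The ISG15 stretch holds 3 overlapping matches and the IFI6 stretch 3 separate ones. Over the 34 members with a promoter in the RefSeq table, 23 (67.6%) held the core within 250 bases before and 50 after the start, against 2847 of 35116 promoters (8.11%). The element to which STAT dimers bind, TTCNNNGAA, which may overlap an ISRE core, was in 9 of the 34 (26.5%) and in 7.66% of all promoters. The 9 members without an entry are DHX58, IRF7, IFIT2, IFITM2, OAS2, OASL, MX2, USP18 and TRIM22. These matches are descriptions of letters and not of bound sites.

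The libraries held 18580419 to 27031647 counted reads. Levels are given as CPM, read counts scaled to the size of each library with TMM factors, and they are compared between groups and not between genes, because they are not divided by gene length. The targeted fusion has no row of its own, and its reads fall on the rows of SSX1 and SS18. SSX1 read 77, 58.5 and 55.1 CPM with shRenilla, 20.9, 20.7 and 18.7 CPM with shSS18-SSX1-1 and 29.0, 29.2 and 27.8 CPM with shSS18-SSX1-2 (log2 change for both hairpins -1.42 ± 0.10, edgeR adjusted p = 5.7e-08), and SS18 fell as well (-0.56 ± 0.06, edgeR adjusted p = 4.7e-06). BRD9 mRNA read 85.2, 89.6 and 90.8 CPM with DMSO and 94.9, 89.1 and 95.4 CPM with dBRD9-A, a log2 change that did not pass (0.08 ± 0.04, edgeR adjusted p = 0.12), and since the compound removes the protein this says nothing about its action. One library stood apart: shRenilla replicate 1 differed from the other shRenilla libraries with a chi-square per degree of freedom of 34.6 and 25.6, against 9.32 or less for every other pair of lentiviral libraries. All 7 synovial sarcoma markers listed, SSX1 and SS18 among them, were detected in every library. With knockdown 1 of the 7 rose and 4 fell, SSX1 and SS18 being among those that fell (22.5% of all genes tested rose and 22.1% fell). With dBRD9-A 1 rose and 2 fell (17.7% of all genes tested rose and 18.2% fell). Their summed level was 931 to 973 CPM with DMSO, 920 to 960 with dBRD9-A, 677 to 694 with shRenilla, 560 to 573 with shSS18-SSX1-1 and 597 to 608 with shSS18-SSX1-2, and the part of this fall in the results for the members was not tested. The 13 leukocyte and plasmacytoid dendritic cell markers summed to 0.359 to 1.57 CPM and none reached the level needed for a test.

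Several of the 43 genes had hardly any reads in the cells without knockdown. Between 37 and 38 of them had at least 1 read in each DMSO and dBRD9-A library, 38 to 40 in each shRenilla library and all 43 in each of the 6 knockdown libraries. OASL, MX2, IFI44 and IFI44L had no read in any DMSO library. Summed over the 43 genes, the level was 411 to 431 CPM with DMSO, 391 to 401 CPM with dBRD9-A and 443 to 467 CPM with shRenilla. It was 876 to 1004 CPM with shSS18-SSX1-1 and 1017 to 1316 CPM with shSS18-SSX1-2. Leaving out the 5 genes with the most reads (EIF2AK2, STAT2, IFITM3, OAS3 and PARP14), the sums were 134 to 139 CPM in the 6 DMSO and dBRD9-A libraries, 179 to 192 CPM with shRenilla and 467 to 788 CPM over the knockdown libraries. The ranges of the knockdown groups lay above those of the 3 other groups in both sums.

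**Figure D1:**
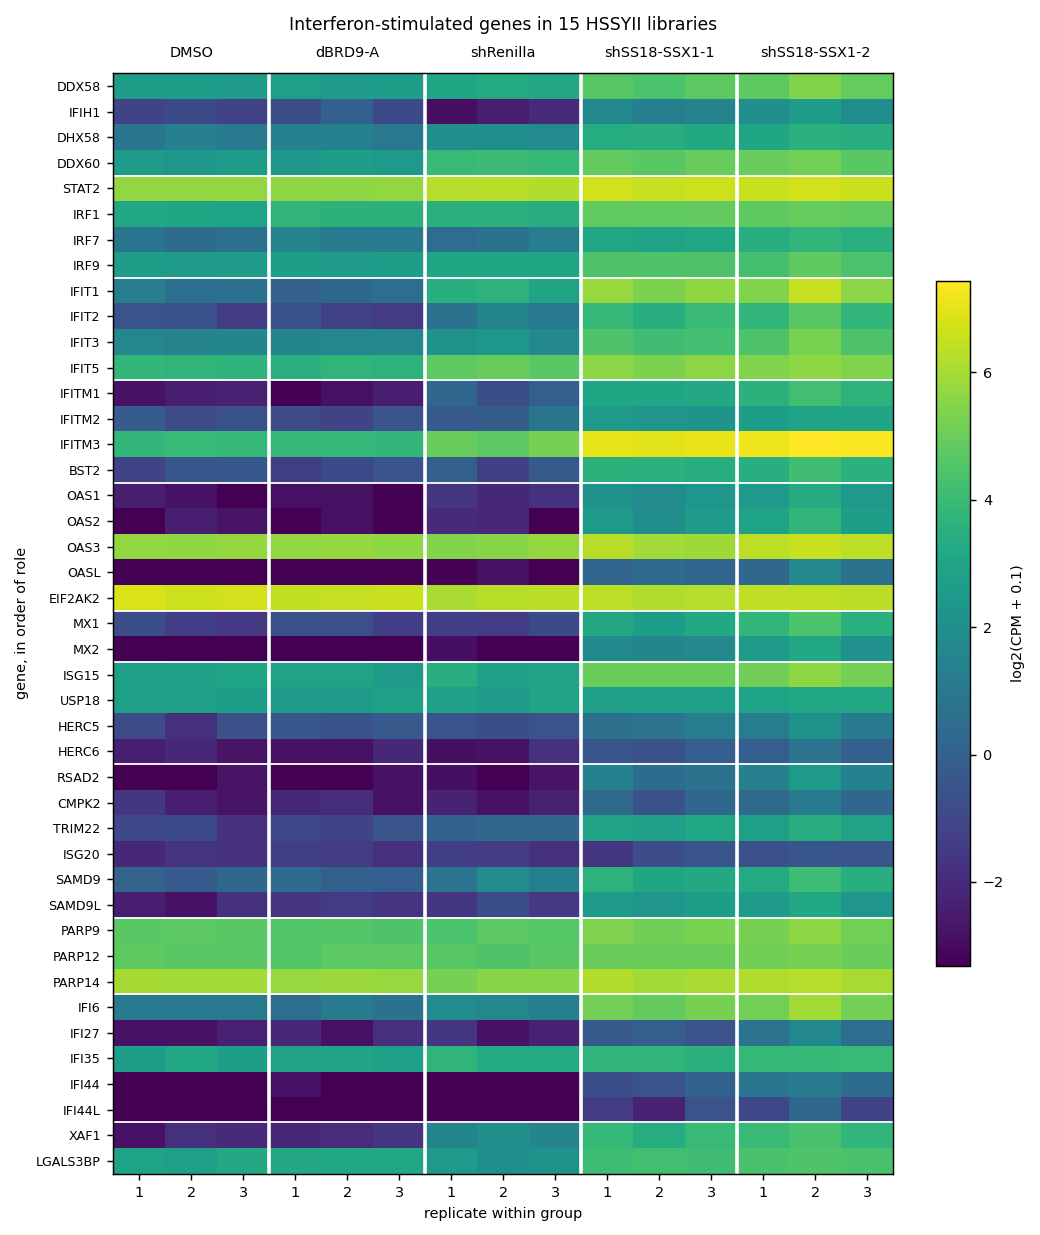
Level of each of the 43 genes (rows, in order of role, white lines between roles) in each of the 15 libraries (columns, 3 replicates for each of 5 groups), as log2(CPM + 0.1). The 6 knockdown libraries on the right are brighter for most rows, while rows such as EIF2AK2 and USP18 keep a similar shade throughout.

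**Figure D2:**
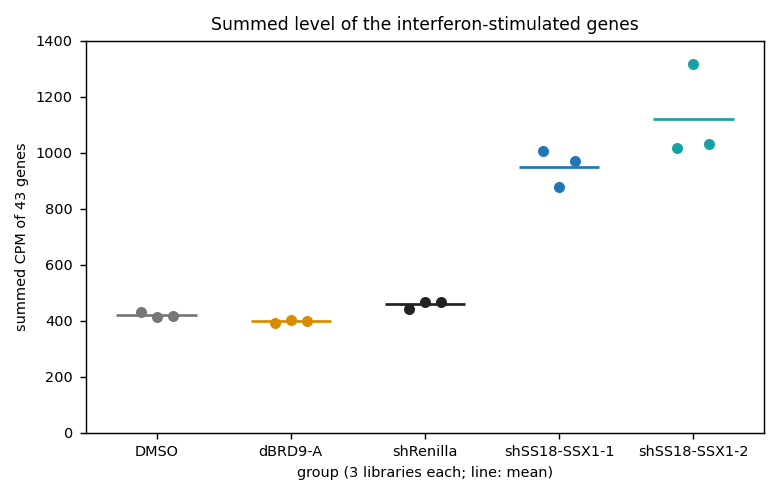
Summed level of the 43 genes in CPM (vertical axis, from 0) for the 3 libraries of each group (points) with the group mean (line). The 6 knockdown libraries sit between 876 and 1316 CPM and the 9 others between 391 and 467 CPM.

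Knockdown of SS18-SSX1 was followed by higher transcript levels of nearly the whole list. Against shRenilla and averaged over both hairpins, 40 of the 43 genes rose, none fell, EIF2AK2 and USP18 did not pass the test, and IFI44L had too few reads to be tested (edgeR quasi-likelihood test, Benjamini-Hochberg adjusted p under 0.05 over 14269 genes). Of all genes tested, 22.5% rose and 22.1% fell. With a fold above 1.5 as well, 37 members and 12.5% of all genes rose. Of the members, 31 passed 2-fold, 26 passed 4-fold, 15 passed 8-fold and 10 passed 16-fold. The median log2 change was 2.28 over the 42 members tested, 2.39 over all 43 when the 5 members with at most 2 control reads are set to their counting bound, and -0.01 over all genes tested. No overlap between the 6 knockdown and the 3 shRenilla libraries was seen for 39 of the 43 members, a pattern found upward in 21.6% of all genes. A gene without reads in the controls enters the test only when it is higher elsewhere, so the members with at least 10 counts in every shRenilla library were also counted: of these 28, 26 rose, with a median log2 change of 1.83. Without shRenilla replicate 1, 40 members rose, with IFI44L now tested and ISG20 no longer passing. The cells were not sorted, so a larger share of cells with high transcript levels and a higher level in each cell cannot be told apart.

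The RNA sensors rose together. DDX58, which encodes RIG-I, read 8.08, 9.55 and 9.05 CPM with shRenilla, 24.9, 21.1 and 26 CPM with shSS18-SSX1-1 and 27.1, 42.2 and 29.9 CPM with shSS18-SSX1-2. IFIH1, which encodes MDA5, read 0.0377, 0.0897 and 0.145 CPM with shRenilla, 3.17, 2.43 and 2.75 CPM with shSS18-SSX1-1 and 3.77, 6.06 and 3.70 CPM with shSS18-SSX1-2. In both genes every knockdown library was above every shRenilla library. The log2 change over both hairpins was 1.65 ± 0.14 for DDX58 (edgeR adjusted p = 5.5e-07) and 5.26 ± 0.38 for IFIH1 (edgeR adjusted p = 8.4e-08), the latter from 1 to 3 reads in a control library. DHX58, whose product LGP2 modulates both helicases, read 3.89, 3.95 and 3.53 CPM with shRenilla, 9.92, 10.4 and 9.15 CPM with shSS18-SSX1-1 and 8.09, 11.3 and 10.7 CPM with shSS18-SSX1-2, a rise of 1.37 on the log2 scale (edgeR adjusted p = 1.2e-06). DDX60, a helicase linked to RIG-I signalling, read 15.2, 16.5 and 14.3 CPM with shRenilla, 28.8, 25.6 and 30.9 CPM with shSS18-SSX1-1 and 30.1, 35.6 and 25.9 CPM with shSS18-SSX1-2. It rose by 0.93 ± 0.11 on the log2 scale (edgeR adjusted p = 1.0e-05), the least of the 4, again with no overlap.

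All 4 transcription factors rose as well. STAT2, a component of the ISRE-binding complex, read 76.2, 78.6 and 72.4 CPM with shRenilla, 103, 89.8 and 98.8 CPM with shSS18-SSX1-1 and 93.1, 103 and 96.4 CPM with shSS18-SSX1-2. Its rise was small, 0.35 ± 0.07 on the log2 scale (edgeR adjusted p = 0.0011), yet the groups did not overlap. IRF9, the DNA-binding part of that complex, read 7.93, 8.12 and 8.13 CPM with shRenilla, 21.5, 22.1 and 21.8 CPM with shSS18-SSX1-1 and 19.4, 27.1 and 20.9 CPM with shSS18-SSX1-2 (log2 change 1.44 ± 0.11, edgeR adjusted p = 1.8e-07). IRF1, a factor induced by both interferon types, read 11.4, 11.7 and 10.3 CPM with shRenilla, 27.9, 27.9 and 28.9 CPM with shSS18-SSX1-1 and 27.1, 29.9 and 27.7 CPM with shSS18-SSX1-2. The values of IRF1 were nearly the same with both hairpins, 1.34 ± 0.09 and 1.31 ± 0.09 on the log2 scale. IRF7, which amplifies interferon production, read 1.32, 1.52 and 2.32 CPM with shRenilla, 8.65, 7.67 and 8.46 CPM with shSS18-SSX1-1 and 10.4, 13.4 and 11.3 CPM with shSS18-SSX1-2. It showed the largest rise of the 4, 2.52 ± 0.17 on the log2 scale (edgeR adjusted p = 4.4e-08).

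The IFIT proteins bind viral RNA and stop its translation, and all 4 genes rose. IFIT1 read 10.7, 12.2 and 7.69 CPM with shRenilla, 54.5, 39.4 and 50.9 CPM with shSS18-SSX1-1 and 41.5, 90.8 and 47.6 CPM with shSS18-SSX1-2, a log2 change of 2.39 ± 0.25 (edgeR adjusted p = 2.9e-06). IFIT2 read 1.55, 2.78 and 2.08 CPM with shRenilla, 14.2, 10.9 and 16.0 CPM with shSS18-SSX1-1 and 13.5, 25.6 and 13.8 CPM with shSS18-SSX1-2 and rose the most of the family, by 2.87 ± 0.26 on the log2 scale (edgeR adjusted p = 9.3e-07). IFIT3, a partner of IFIT1, read 4.38, 4.89 and 3.24 CPM with shRenilla, 22.0, 17.3 and 18.6 CPM with shSS18-SSX1-1 and 22.1, 38.4 and 21.2 CPM with shSS18-SSX1-2 (log2 change 2.44 ± 0.21, edgeR adjusted p = 5.4e-07). In these 3 genes replicate 2 of shSS18-SSX1-2 was the highest library. IFIT5 read 27.3, 30.2 and 25.9 CPM with shRenilla, 46.7, 40.3 and 48.0 CPM with shSS18-SSX1-1 and 42.3, 49.4 and 42.7 CPM with shSS18-SSX1-2 and rose by only 0.68 ± 0.09 on the log2 scale (edgeR adjusted p = 3.0e-05). No shRenilla library reached a knockdown library in any of the 4. IFIT2 and IFIT3 share exonic bases with LIPA on the opposite strand.

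Membrane proteins that stop virus entry or release followed. IFITM3, which blocks the fusion of virus and cell membranes, read 30.5, 26.2 and 37.2 CPM with shRenilla, 131, 123 and 135 CPM with shSS18-SSX1-1 and 144, 173 and 160.0 CPM with shSS18-SSX1-2. The rise was 2.18 ± 0.11 on the log2 scale, or 4.54-fold (edgeR adjusted p = 2.2e-09). IFITM1 read 1.13, 0.493 and 0.822 CPM with shRenilla, 8.02, 7.83 and 8.78 CPM with shSS18-SSX1-1 and 11.9, 17.8 and 12.2 CPM with shSS18-SSX1-2, a log2 change of 3.67 ± 0.23 (edgeR adjusted p = 2.1e-08). IFITM2 read 0.755, 0.807 and 1.69 CPM with shRenilla, 5.53, 4.75 and 4.68 CPM with shSS18-SSX1-1 and 6.32, 7.36 and 7.85 CPM with shSS18-SSX1-2, a log2 change of 2.48 ± 0.21 (edgeR adjusted p = 4.6e-07). BST2, known as tetherin because it holds new virions on the cell surface, read 0.868, 0.314 and 0.726 CPM with shRenilla, 11.9, 11.5 and 10.3 CPM with shSS18-SSX1-1 and 10.8, 17.6 and 11.5 CPM with shSS18-SSX1-2. BST2 rose 18.6-fold, the largest change of these 4 (log2 4.22 ± 0.26, edgeR adjusted p = 1.8e-08). All groups were apart. The 3 IFITM genes are close paralogs, and the treatment of reads that match several of them is not given in the sources used here. The split between them is therefore uncertain.

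The oligoadenylate synthetases sense double-stranded RNA and activate RNase L. OAS1 read 0.226, 0.135 and 0.193 CPM with shRenilla, 4.44, 3.57 and 4.72 CPM with shSS18-SSX1-1 and 5.41, 9.77 and 5.59 CPM with shSS18-SSX1-2. OAS2 read 0.151, 0.135 and 0 CPM with shRenilla, 5.62, 3.84 and 6.03 CPM with shSS18-SSX1-1 and 7.36, 13.2 and 6.31 CPM with shSS18-SSX1-2. Their log2 changes were 4.81 ± 0.35 (edgeR adjusted p = 8.4e-08) and 6.00 ± 0.48 (edgeR adjusted p = 2.5e-07), from 3 to 6 and 0 to 4 reads in a shRenilla library, and no knockdown library overlapped them. OAS3 read 42.7, 46.0 and 52.6 CPM with shRenilla, 77.1, 62.1 and 59.9 CPM with shSS18-SSX1-1 and 83.5, 91.4 and 82.1 CPM with shSS18-SSX1-2, and rose by 0.67 ± 0.09 on the log2 scale (edgeR adjusted p = 6.2e-05). OASL, a relative without synthetase activity, had 1 read over the shRenilla libraries and 204 over the knockdown libraries, a ratio of 107 after scaling (95% counting interval 19.1 to 4266). Its values were 0, 0.0448 and 0 CPM with shRenilla, 0.997, 1.24 and 1.03 CPM with shSS18-SSX1-1 and 1.14, 3.11 and 1.54 CPM with shSS18-SSX1-2. EIF2AK2, which encodes PKR, the kinase that halts translation on double-stranded RNA, was the exception of this group at 67.2, 77.2 and 79.1 CPM with shRenilla, 83.2, 71.6 and 75.9 CPM with shSS18-SSX1-1 and 84.2, 85.3 and 79.7 CPM with shSS18-SSX1-2. Its log2 change was 0.09 ± 0.07 (edgeR adjusted p = 0.36), and the groups overlapped. EIF2AK2 shares exonic bases with GPATCH11 on the opposite strand.

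The MX GTPases trap viral nucleocapsids. MX1 read 0.302, 0.269 and 0.435 CPM with shRenilla, 9.01, 6.27 and 9.11 CPM with shSS18-SSX1-1 and 13.6, 21.1 and 11.4 CPM with shSS18-SSX1-2, a log2 change of 5.05 ± 0.32 (edgeR adjusted p = 2.5e-08). MX2 had a single read over the 3 shRenilla libraries and 636 over the 6 knockdown libraries, which gave a ratio of 335 (95% counting interval 59.9 to 13258). MX2 levels were 0.0377, 0 and 0 CPM with shRenilla, 3.49, 2.86 and 3.28 CPM with shSS18-SSX1-1 and 5.82, 8.47 and 4.26 CPM with shSS18-SSX1-2. Both genes were apart between groups and were higher in each shSS18-SSX1-2 library than in any shSS18-SSX1-1 library. Intervals of this kind cover counting error only.

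ISG15 is a ubiquitin-like protein that is attached to other proteins, HERC5 is its main ligase and USP18 removes it. ISG15 read 11.1, 7.13 and 7.21 CPM with shRenilla, 32.7, 31.2 and 31.8 CPM with shSS18-SSX1-1 and 34.3, 49.3 and 36.4 CPM with shSS18-SSX1-2, a rise of 2.05 ± 0.16 on the log2 scale (edgeR adjusted p = 1.7e-07). HERC5 read 0.604, 0.493 and 0.580 CPM with shRenilla, 1.45, 1.62 and 2.22 CPM with shSS18-SSX1-1 and 2.27, 4.37 and 2.00 CPM with shSS18-SSX1-2 (log2 change 2.00 ± 0.32, edgeR adjusted p = 1.7e-04). HERC6, a related ligase, read 0.0377, 0.0448 and 0.193 CPM with shRenilla, 0.634, 0.540 and 0.821 CPM with shSS18-SSX1-1 and 0.818, 1.61 and 0.873 CPM with shSS18-SSX1-2 (log2 change 3.24 ± 0.50, edgeR adjusted p = 1.3e-04). These 3 genes showed no overlap between groups. USP18, which also dampens signalling from IFNAR2, read 7.06, 5.70 and 7.64 CPM with shRenilla, 7.11, 7.02 and 6.69 CPM with shSS18-SSX1-1 and 7.41, 8.70 and 8.32 CPM with shSS18-SSX1-2. The log2 value for USP18 was 0.13 ± 0.11 (edgeR adjusted p = 0.37) with overlapping groups. USP18 has a near-identical partial copy, USP41, with which it may share reads.

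Among the further antiviral effectors, RSAD2 encodes viperin, which makes a chain-terminating nucleotide, and CMPK2 encodes a nucleotide kinase beside it in the genome. RSAD2 had 2 reads over the shRenilla libraries and 368 over the knockdown libraries, a ratio of 97.0 (95% counting interval 26.7 to 804). RSAD2 levels were 0.0377, 0 and 0.0484 CPM with shRenilla, 2.54, 1.30 and 1.56 CPM with shSS18-SSX1-1 and 2.50, 5.75 and 2.52 CPM with shSS18-SSX1-2. CMPK2 read 0.113, 0.0448 and 0.0967 CPM with shRenilla, 1.22, 0.540 and 1.15 CPM with shSS18-SSX1-1 and 1.23, 2.05 and 1.08 CPM with shSS18-SSX1-2 (log2 change 3.71 ± 0.48, edgeR adjusted p = 2.7e-05). This pair shares exonic bases on opposite strands, and without a stated strand setting their shared reads cannot be told apart. TRIM22, a ubiquitin ligase with antiviral activity, read 0.906, 1.08 and 1.06 CPM with shRenilla, 7.66, 6.65 and 8.54 CPM with shSS18-SSX1-1 and 6.77, 10.5 and 7.34 CPM with shSS18-SSX1-2 (log2 change 2.95 ± 0.20, edgeR adjusted p = 4.6e-08). SAMD9 and SAMD9L, paired restriction factors of poxviruses, rose by 2.13 ± 0.25 (edgeR adjusted p = 1.1e-05) and 4.22 ± 0.29 (edgeR adjusted p = 6.2e-08) on the log2 scale. SAMD9 read 1.62, 3.54 and 2.42 CPM with shRenilla, 12.3, 8.05 and 8.78 CPM with shSS18-SSX1-1 and 9.59, 17.1 and 11.0 CPM with shSS18-SSX1-2. SAMD9L read 0.226, 0.493 and 0.242 CPM with shRenilla, 6.07, 4.81 and 6.24 CPM with shSS18-SSX1-1 and 5.86, 8.39 and 4.83 CPM with shSS18-SSX1-2. ISG20, an exonuclease, read 0.302, 0.269 and 0.193 CPM with shRenilla, 0.226, 0.486 and 0.616 CPM with shSS18-SSX1-1 and 0.545, 0.630 and 0.616 CPM with shSS18-SSX1-2. ISG20 passed (log2 change 0.97 ± 0.35, edgeR adjusted p = 0.040), its groups overlapped, and it passed with shSS18-SSX1-2 (1.16 ± 0.39, edgeR adjusted p = 0.033) but not with shSS18-SSX1-1 (0.77 ± 0.42, edgeR adjusted p = 0.16), and the call over both hairpins was lost with DESeq2, with the rows of a gene summed, with the replicate number as a block and when any 1 library other than shSS18-SSX1-1 replicate 1 was left out. With shSS18-SSX1-2 it was lost with DESeq2, with the block, and without shRenilla replicate 2 or 3 or any 1 of the shSS18-SSX1-2 libraries.

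The ADP-ribosyltransferases of the PARP family had the smallest median change of all roles, 0.66 on the log2 scale. PARP14 read 37.7, 46.5 and 46.1 CPM with shRenilla, 72.8, 62.3 and 67.2 CPM with shSS18-SSX1-1 and 71.9, 74.9 and 66.0 CPM with shSS18-SSX1-2 and rose by 0.66 ± 0.09 on the log2 scale (edgeR adjusted p = 2.8e-05). PARP9, which acts with the ubiquitin ligase DTX3L, read 20.9, 26.7 and 24 CPM with shRenilla, 41.4, 34.5 and 39.1 CPM with shSS18-SSX1-1 and 37.3, 48.7 and 35.8 CPM with shSS18-SSX1-2 and rose by 0.71 ± 0.11 (edgeR adjusted p = 1.7e-04). PARP12 read 25.1, 22.4 and 25.8 CPM with shRenilla, 31.8, 32.7 and 32.3 CPM with shSS18-SSX1-1 and 34.8, 37.3 and 32 CPM with shSS18-SSX1-2, a rise of 0.44 ± 0.08 (edgeR adjusted p = 4.8e-04). The groups did not overlap for any of the 3. PARP9 shares exonic bases with DTX3L on the opposite strand.

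The genes named for their induction by interferon ranged widely. IFI6, a small hydrophobic membrane protein, read 3.55, 3.05 and 2.42 CPM with shRenilla, 35.0, 28.5 and 37.5 CPM with shSS18-SSX1-1 and 35.7, 61.6 and 36.7 CPM with shSS18-SSX1-2, a rise of 12.6-fold (log2 3.66 ± 0.22, edgeR adjusted p = 1.4e-08). IFI27, of the same protein family, read 0.226, 0.0448 and 0.0967 CPM with shRenilla, 0.725, 0.864 and 0.575 CPM with shSS18-SSX1-1 and 1.64, 3.11 and 1.39 CPM with shSS18-SSX1-2 (log2 change 3.17 ± 0.49, edgeR adjusted p = 1.3e-04). IFI44 and its neighbour IFI44L had no read in any shRenilla library. The knockdown levels of IFI44 were 0.498, 0.594 and 0.903 CPM with shSS18-SSX1-1 and 1.77, 2.01 and 1.28 CPM with shSS18-SSX1-2. The 159 reads of IFI44 over the knockdown libraries made it at least 27.9-fold higher, taking 3 reads over the control group as the floor. For IFI44L, 67 reads made it at least 11.8-fold higher, with 0.272, 0.108 and 0.575 CPM with shSS18-SSX1-1 and 0.409, 1.14 and 0.359 CPM with shSS18-SSX1-2. IFI35, a partner of NMI, read 13.1, 9.33 and 9.53 CPM with shRenilla, 13.5, 13.2 and 11.5 CPM with shSS18-SSX1-1 and 14.1, 14.7 and 15.1 CPM with shSS18-SSX1-2. IFI35 rose by only 0.33 ± 0.12 on the log2 scale (edgeR adjusted p = 0.033), its groups overlapped, and it passed with shSS18-SSX1-2 (0.42 ± 0.13, edgeR adjusted p = 0.025) but not with shSS18-SSX1-1 (0.24 ± 0.13, edgeR adjusted p = 0.17), where it passed once shRenilla replicate 1 was left out. The IFI35 call over both hairpins was lost without shRenilla replicate 2 or 3, shSS18-SSX1-1 replicate 1 or 2, or shSS18-SSX1-2 replicate 3, and the call with shSS18-SSX1-2 without shRenilla replicate 2 or 3 or shSS18-SSX1-2 replicate 2 or 3.

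The remaining members are XAF1, which opposes the inhibitor of apoptosis XIAP, and LGALS3BP, a secreted glycoprotein that binds galectins. XAF1 read 2.98, 4.08 and 2.90 CPM with shRenilla, 14.4, 9.89 and 15.2 CPM with shSS18-SSX1-1 and 15.2, 20.4 and 13.6 CPM with shSS18-SSX1-2 (log2 change 2.14 ± 0.19, edgeR adjusted p = 6.6e-07). LGALS3BP read 5.51, 3.95 and 4.40 CPM with shRenilla, 16.9, 17.9 and 17.7 CPM with shSS18-SSX1-1 and 20.3, 22.4 and 20.1 CPM with shSS18-SSX1-2 (log2 change 2.03 ± 0.11, edgeR adjusted p = 8.2e-09). Neither gene overlapped between groups.

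**Figure D3:**
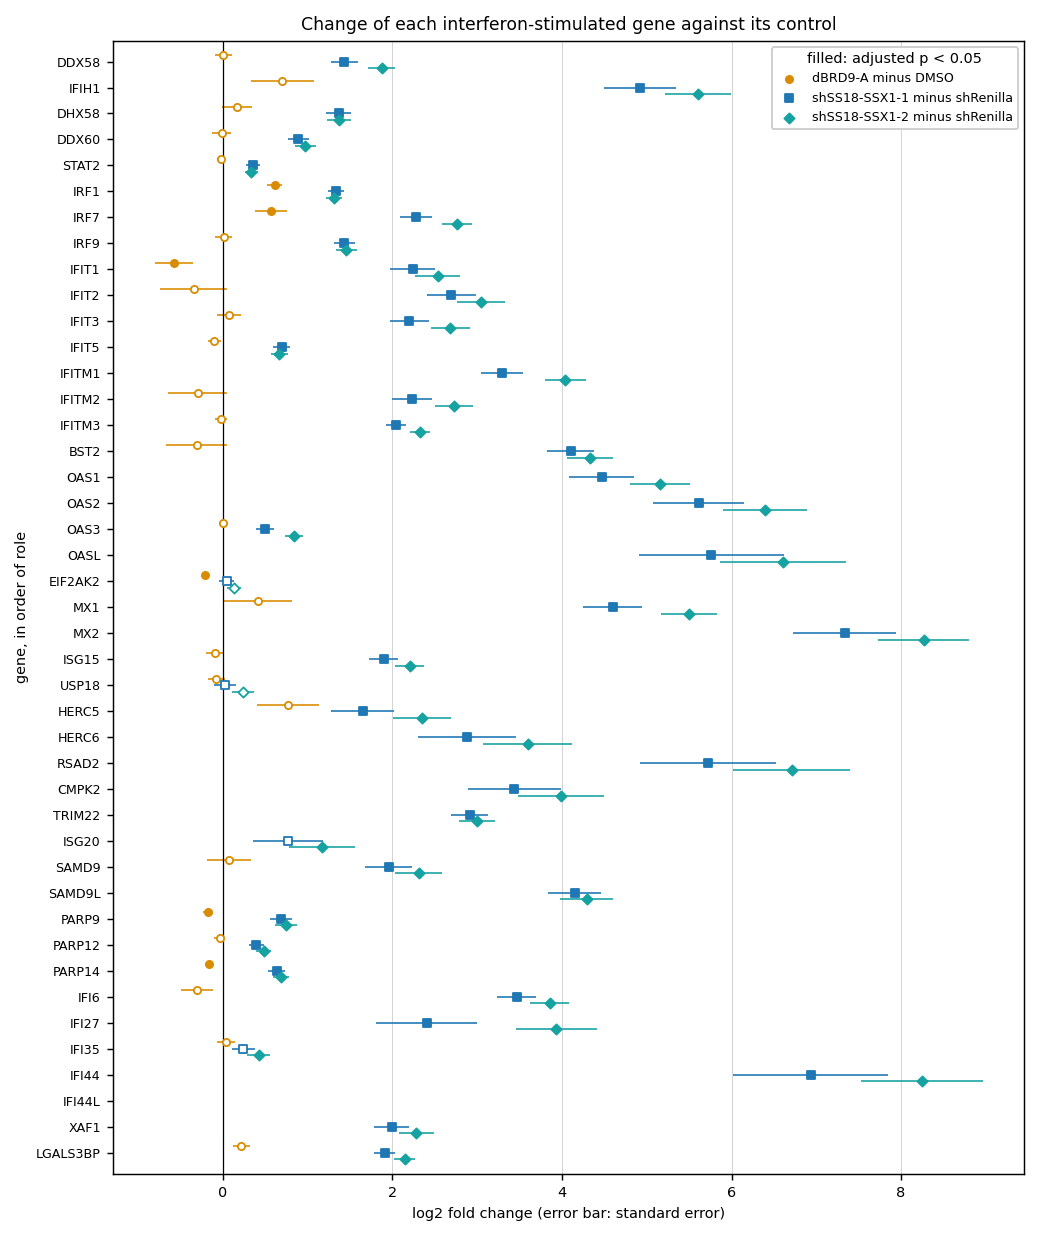
Log2 fold change (horizontal axis) of each member (rows, in order of role) with its standard error, for dBRD9-A against DMSO (circles) and for each hairpin against shRenilla (squares and diamonds). Filled symbols passed an adjusted p under 0.05, members without a symbol were not tested, and the values of MX2, OASL, RSAD2 and IFI44 rest on at most 2 control reads. Nearly all hairpin symbols lie right of 0 and most circles lie near it.

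Both hairpins gave this result. With shSS18-SSX1-1, 38 members rose and none fell (22% of all genes tested rose and 19.5% fell), with a median log2 change of 2.12. With shSS18-SSX1-2, 40 rose and none fell (18.3% of all genes tested rose and 15.9% fell), with a median of 2.44. The same shRenilla libraries served both comparisons. SSX1 read 20.9, 20.7 and 18.7 CPM with shSS18-SSX1-1 and 29.0, 29.2 and 27.8 CPM with shSS18-SSX1-2, a log2 difference of 0.49 that did not pass the edgeR test. SSX1 thus tended to fall less with shSS18-SSX1-2, while the members tended to rise more with it. Of 42 members, 39 had a higher fitted level with shSS18-SSX1-2, with a median log2 difference of 0.35 and a highest of 1.53, in IFI27. No member passed the test of that difference in either direction (0.119% of all genes were higher and 0.028% lower, edgeR adjusted p over 14269 genes, lowest member adjusted p 0.11), although 18 had an unadjusted p under 0.05. DESeq2 called 4 members higher with shSS18-SSX1-2 (IFI27, IFITM1, MX1 and MX2) and limma-voom none. Leaving out shRenilla replicate 1 or replicate 2 brought IFITM1 past the threshold. In 17 of the 43 members every shSS18-SSX1-2 library was above every shSS18-SSX1-1 library, a pattern of 11.5% of all genes. Replicate 2 of shSS18-SSX1-2 was the highest of the 9 lentiviral libraries for 40 of the 43 members, and its summed level was 1316 CPM against 1017 and 1032 CPM in the other two. Without it, the median log2 change over both hairpins was 2.17 and 39 members rose.

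Of the 43 members, 22 lie within 200 kb of another member, in 9 neighbourhoods. The largest holds IFIT2, IFIT3, IFIT1 and IFIT5 at chr10:91043451-91181362 (GRCh37, GENCODE). The IFITM genes lie at chr11:303655-329475, OAS1, OAS3 and OAS2 at chr12:113343661-113449528, and MX2 and MX1 at chr21:42733926-42841998. Neighbours did not share one size of change: the IFIT genes ranged from 0.68 to 2.87 on the log2 scale, and the OAS genes from 0.67 for OAS3, in the middle, to 6.00 for OAS2. The adjacent SAMD9 and SAMD9L rose by 2.13 and 4.22. The median log2 change was 2.87 for the members in neighbourhoods and 1.65 for those that stand alone, a description only. All tested members of the 9 neighbourhoods rose with knockdown.

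Degradation of BRD9 for 6 hr left most of the list near its control level, relative to the other genes. Of the 28 members with enough reads for the test, 2 rose (17.7% of all genes tested rose), 4 fell (18.2% of all genes tested fell) and 22 did not pass (edgeR adjusted p over 13652 genes). The members' shares, 2 and 4 of 28, were no larger than these. Their median log2 change was -0.02, and 0.01 over all genes. With a fold above 1.5 as well, IRF1 rose (2.23% of all genes tested rose) and no member fell (0.593% of all genes tested fell). For 5 of the 43 members every dBRD9-A library was above every DMSO library, and for 3 every one was below. These patterns were found in 22.5% and 23.3% of all genes tested, so groups that lie apart are common here. Replicates varied by a coefficient of variation of 2.78% beyond counting error here, and by 8.91% in the lentiviral groups.

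IRF1 showed the clearest change with dBRD9-A, from 8.62, 8.05 and 7.55 CPM with DMSO and 13.0, 11.9 and 11.9 CPM with dBRD9-A. The rise was 0.61 ± 0.08 on the log2 scale, or 1.53-fold (edgeR adjusted p = 1.0e-06), and the groups were apart. IRF7 read 1.71, 1.28 and 1.54 CPM with DMSO and 2.69, 2.00 and 2.00 CPM with dBRD9-A, a rise of 0.57 ± 0.19 (edgeR adjusted p = 0.019), again with no overlap. IRF7 did not pass with DESeq2 or without DMSO replicate 2 or dBRD9-A replicate 1. STAT2 read 51.4, 52.1 and 51.1 CPM with DMSO and 50.3, 48.9 and 52.0 CPM with dBRD9-A. IRF9 read 6.42, 5.82 and 6.15 CPM with DMSO and 6.40, 5.87 and 6.18 CPM with dBRD9-A. The groups overlapped in both, and neither passed.

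Among the 4 members that fell with dBRD9-A, 3 did so by small amounts. EIF2AK2 read 113, 98 and 104 CPM with DMSO and 86.5, 89.1 and 95.6 CPM with dBRD9-A (log2 change -0.21 ± 0.04, edgeR adjusted p = 4.0e-04). PARP14 read 63.9, 61.0 and 60.8 CPM with DMSO and 54.0, 55.9 and 55.3 CPM with dBRD9-A (log2 change -0.16 ± 0.04, edgeR adjusted p = 0.0030). PARP9 read 25.6, 26.7 and 25.6 CPM with DMSO and 22.8, 23.5 and 22.1 CPM with dBRD9-A (log2 change -0.18 ± 0.06, edgeR adjusted p = 0.014). The groups were apart in these 3 genes. IFIT1 read 2.25, 1.37 and 1.54 CPM with DMSO and 0.884, 1.16 and 1.39 CPM with dBRD9-A (log2 change -0.58 ± 0.23, edgeR adjusted p = 0.046), but the groups overlapped, and the call was lost with total-count scaling, DESeq2 and limma-voom and without any 1 of 4 libraries, namely DMSO replicates 1 and 3 and dBRD9-A replicates 1 and 2. PARP9 was lost with DESeq2 and without dBRD9-A replicate 3.

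Members that rose more than 8-fold with knockdown did not pass the test with dBRD9-A where they could be tested. IFI6 read 2.16, 2.14 and 1.92 CPM with DMSO and 1.39, 2.08 and 1.52 CPM with dBRD9-A. BST2 read 0.359, 0.642 and 0.673 CPM with DMSO and 0.295, 0.439 and 0.609 CPM with dBRD9-A. MX1 read 0.494, 0.300 and 0.240 CPM with DMSO and 0.547, 0.519 and 0.305 CPM with dBRD9-A. In all 3 the DMSO and dBRD9-A values overlapped. IFIH1 read 0.359, 0.428 and 0.337 CPM with DMSO and 0.505, 0.879 and 0.435 CPM with dBRD9-A, with no overlap, but the change of 0.70 ± 0.37 on the log2 scale did not pass (edgeR adjusted p = 0.14). HERC5 read 0.449, 0.171 and 0.529 CPM with DMSO and 0.673, 0.559 and 0.696 CPM with dBRD9-A, also apart and also not past the threshold (0.77 ± 0.37, edgeR adjusted p = 0.10). LGALS3BP read 7.45, 6.59 and 8.85 CPM with DMSO and 8.96, 8.75 and 8.66 CPM with dBRD9-A (0.22 ± 0.10, edgeR adjusted p = 0.080).

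The DMSO and dBRD9-A values of the other members tested overlapped as well, and none of them passed. DDX58 read 6.47, 6.46 and 5.87 CPM with DMSO and 6.65, 5.87 and 6.31 CPM with dBRD9-A. DHX58 read 1.75, 2.48 and 2.02 CPM with DMSO and 2.53, 2.56 and 1.91 CPM with dBRD9-A. DDX60 read 6.02, 5.01 and 6.01 CPM with DMSO and 5.13, 6.19 and 5.35 CPM with dBRD9-A. The ranges of both groups overlapped in all 3 sensors. IFIT2 read 0.584, 0.557 and 0.288 CPM with DMSO and 0.547, 0.320 and 0.261 CPM with dBRD9-A. IFIT3 read 3.05, 2.74 and 2.93 CPM with DMSO and 2.90, 3.04 and 3.18 CPM with dBRD9-A. IFIT5 read 14.1, 13.1 and 12.6 CPM with DMSO and 11.4, 13.1 and 12.3 CPM with dBRD9-A. Of this family only IFIT1 passed. IFITM3 read 13.7, 15.2 and 14.5 CPM with DMSO and 14.5, 14.4 and 13.7 CPM with dBRD9-A. IFITM2 read 0.763, 0.471 and 0.529 CPM with DMSO and 0.463, 0.360 and 0.609 CPM with dBRD9-A. OAS3 read 52.2, 50.3 and 52.9 CPM with DMSO and 51.6, 53.5 and 49.2 CPM with dBRD9-A. Here too the groups shared their range. ISG15 read 6.65, 7.06 and 7.89 CPM with DMSO and 7.28, 7.19 and 5.66 CPM with dBRD9-A. USP18 read 6.60, 6.72 and 6.35 CPM with DMSO and 6.06, 5.75 and 6.79 CPM with dBRD9-A. PARP12 read 27.4, 25.9 and 25.7 CPM with DMSO and 23.0, 26.8 and 26.6 CPM with dBRD9-A. In these 3 genes the lowest library was one with dBRD9-A. SAMD9 read 0.988, 0.728 and 1.15 CPM with DMSO and 1.26, 0.879 and 0.827 CPM with dBRD9-A. IFI35 read 6.33, 8.52 and 6.49 CPM with DMSO and 7.24, 7.79 and 6.79 CPM with dBRD9-A. The 15 members without a test had between 0 and 14 reads in each of these libraries.

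The difference between both effects was tested in a single fit of all 15 libraries, since the 2 experiments share no library. For 32 of 42 members the effect of dBRD9-A was lower than that of knockdown, and for none was it higher (19% of all genes tested were lower and 17.5% higher, edgeR adjusted p over 14560 genes). All 42 fitted differences were negative, with a median of -2.19 on the log2 scale. Of the 42, 14 had too few reads for the test with dBRD9-A. Those members entered this fit through the lentiviral libraries, where they are higher, so their negative sign follows in part from that selection. The 32 include IFITM1, OAS1, OAS2, HERC6, CMPK2, TRIM22 and SAMD9L of these 14. The sign, the median and the count of 32 over all 42 are therefore a description only. The 10 members that did not pass included MX2, OASL, IFI44 and RSAD2, which have almost no reads with DMSO and dBRD9-A, and XAF1, IFI27, HERC5, ISG20, IFI35 and USP18. DESeq2 and limma-voom each called 37 members lower: both added MX2, OASL, IFI44 and RSAD2, DESeq2 also IFI44L, and limma-voom also IFI27. IFIT1, PARP9 and PARP14 fell with dBRD9-A and rose with knockdown, and IRF1 and IRF7 rose in both. For IRF1 the rise was 0.61 with dBRD9-A and 1.32 with knockdown on the log2 scale (difference -0.74 ± 0.11, edgeR adjusted p = 4.9e-05). Exposure lasted 6 hr in one experiment and 96 hr with a lentivirus in the other, so time, delivery and target cannot be told apart in this difference.

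The control states themselves differed. Compared with DMSO, 16 of 42 members tested were higher in the shRenilla libraries and 4 were lower (27.9% and 26.6% of all genes tested, edgeR adjusted p over 14560 genes). A member near 0 in both controls can enter this fit through the knockdown libraries. Of the 23 members with at least 10 counts in every DMSO library, 12 were higher and 3 lower, with a median log2 difference of 0.50. XAF1 differed most: it read 0.0449, 0.171 and 0.144 CPM with DMSO and 2.98, 4.08 and 2.90 CPM with shRenilla (log2 difference 4.72 ± 0.43, edgeR adjusted p = 3.9e-08). IFITM1 read 0.0449, 0.0856 and 0.0962 CPM with DMSO and 1.13, 0.493 and 0.822 CPM with shRenilla (3.37 ± 0.60, edgeR adjusted p = 1.0e-04). IFIT1 stood at 1.72 ± 0.465 CPM with DMSO and at 10.2 ± 2.27 CPM with shRenilla (SD, n = 3), a log2 difference of 2.57 ± 0.35 (edgeR adjusted p = 5.1e-06). The other members that were higher were IFIT2 (2.12), TRIM22 (1.53), DDX60 (1.43), SAMD9 (1.39), IFITM3 (1.11), IFIT5 (1.07), DHX58 (0.86), IFITM2 (0.84, lost with limma-voom and without DMSO replicate 2 or 3 or shRenilla replicate 3, with overlapping groups), IFI35 (0.59), STAT2 (0.56), DDX58 (0.50), IRF1 (0.47) and IRF9 (0.39), as log2 differences.

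IFIH1 went the other way between the controls, from 0.375 ± 0.0477 CPM with DMSO to 0.0909 ± 0.0537 CPM with shRenilla (log2 difference -2.05 ± 0.65, edgeR adjusted p = 0.012), a call lost without shRenilla replicate 1. LGALS3BP was lower as well (-0.71 ± 0.13, edgeR adjusted p = 1.2e-04), as were PARP14 (-0.51 ± 0.08, edgeR adjusted p = 2.7e-05) and EIF2AK2 (-0.50 ± 0.08, edgeR adjusted p = 2.0e-05). IFIH1, PARP14 and LGALS3BP were thus lower with shRenilla than with DMSO and rose with knockdown. For PARP14 the DMSO libraries, at 60.8 to 63.9 CPM, overlapped the knockdown libraries, at 62.3 to 74.9 CPM. The members with the lowest control levels stayed low in both states, with OASL and MX2 at a single read each over the shRenilla libraries and IFI44 and IFI44L at 0. Infection, hairpin expression, culture time and vehicle differ together between these 2 controls and cannot be told apart.

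**Figure D4:**
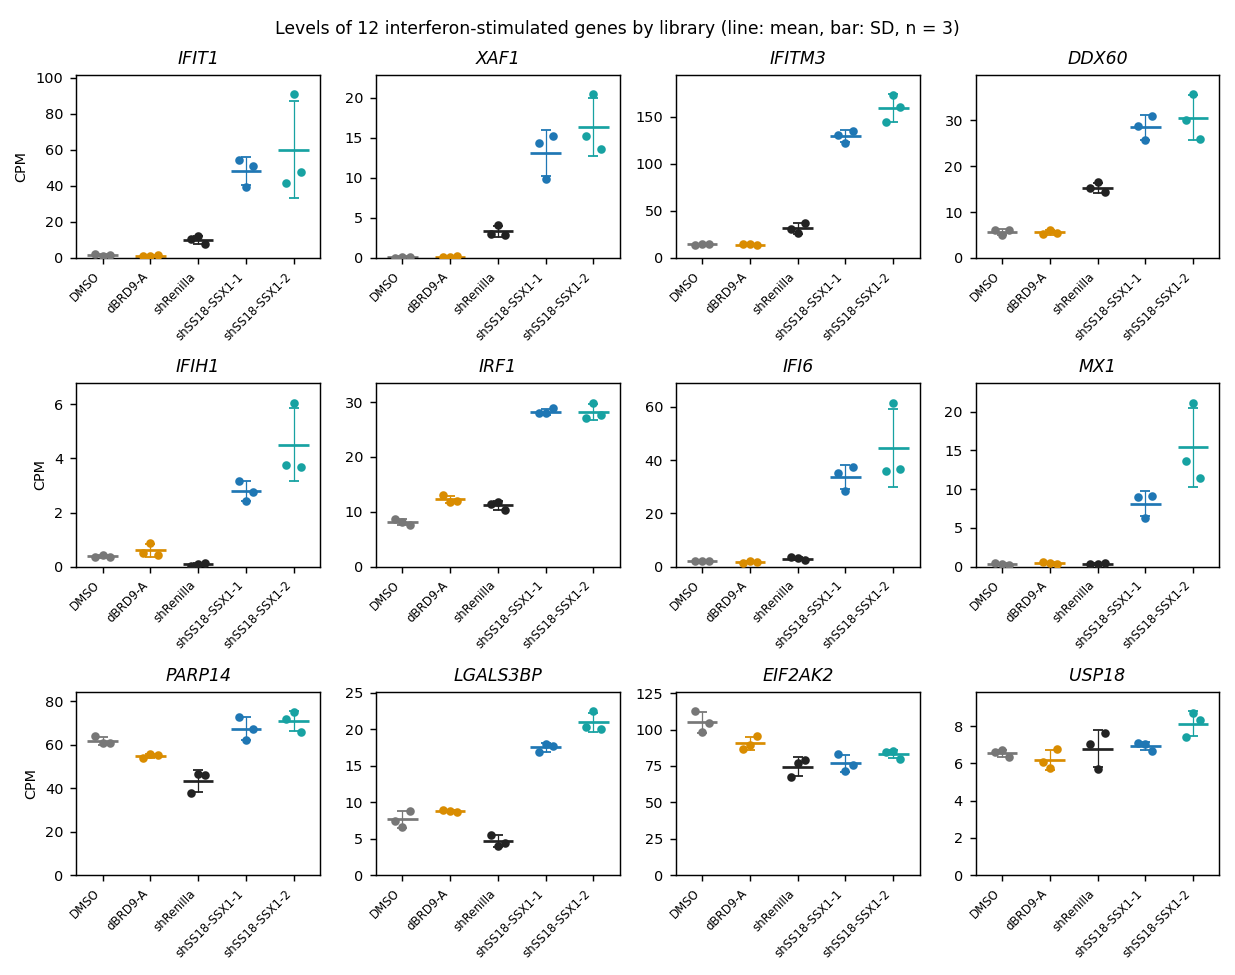
CPM (vertical axes, from 0, one scale for each gene) of 12 members in the 3 libraries of each group (points), with the mean (line) and SD (bar). IFIT1, XAF1, IFITM3 and DDX60 step up from DMSO to shRenilla and again with the hairpins, IFI6 and MX1 lie near the bottom outside the knockdown groups, and EIF2AK2 and USP18 show overlapping shRenilla and knockdown values.

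Genes upstream of the list were examined from lists of the same pathway. Of 22 interferon genes with a row in the tables, none had enough reads for a test in any group, and the highest count of any of them in one library was 8. Over the 3 libraries of each group the ligands summed to 19 reads with DMSO, 18 with dBRD9-A, 2 with shRenilla and 3 with each hairpin. IFNB1 had no read in any group. IFNAR1 read 78.3, 91.3 and 78.1 CPM with shRenilla, 88.6, 81.0 and 94.2 CPM with shSS18-SSX1-1 and 90.6, 95.9 and 86.1 CPM with shSS18-SSX1-2 (log2 value 0.10 ± 0.08, edgeR adjusted p = 0.31). IFNAR2 read 59.6, 55.1 and 57.6 CPM with shRenilla, 54.7, 53.1 and 54.7 CPM with shSS18-SSX1-1 and 60.0, 57.9 and 56.7 CPM with shSS18-SSX1-2 (-0.05 ± 0.06, edgeR adjusted p = 0.57). Neither chain of the type I receptor passed, and both overlapped between groups. Among the 5 receptor genes tested only IFNGR1, a chain of the interferon gamma receptor, rose (0.80 ± 0.12, edgeR adjusted p = 1.3e-04), and 22.5% of all genes tested rose.

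JAK1 and STAT3 were among the signalling kinases and factors that rose with knockdown. JAK1, a kinase at the type I receptor, read 92.5, 128 and 125 CPM with shRenilla, 199.9, 180.5 and 196 CPM with shSS18-SSX1-1 and 206, 211 and 194 CPM with shSS18-SSX1-2 (log2 change 0.77 ± 0.09, edgeR adjusted p = 1.5e-05), and STAT3, a factor activated by many cytokine receptors, rose by 0.62 ± 0.07 (edgeR adjusted p = 3.6e-06). TYK2, the other kinase at the type I receptor, did not pass (-0.05 ± 0.08, edgeR adjusted p = 0.65), and neither did IRF3, the factor that first induces interferon beta (0.01 ± 0.11, edgeR adjusted p = 0.94). With dBRD9-A none of JAK1, TYK2 and STAT3 passed, while IRF3 fell (log2 change -0.28 ± 0.06, edgeR adjusted p = 3.3e-04).

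Of 12 tested genes for sensing and induction, 5 rose with knockdown and 1 fell, against 22.5% and 22.1% of all genes tested. TMEM173, which encodes STING, read 0.113, 0.179 and 0.242 CPM with shRenilla, 6.75, 4.81 and 6.20 CPM with shSS18-SSX1-1 and 10.1, 10.7 and 9.5 CPM with shSS18-SSX1-2, with a rise of 5.43 ± 0.24 on the log2 scale (edgeR adjusted p = 6.0e-10). IFI16, a DNA sensor, read 0.906, 0.493 and 0.580 CPM with shRenilla, 2.13, 1.89 and 2.96 CPM with shSS18-SSX1-1 and 2.50, 4.77 and 2.87 CPM with shSS18-SSX1-2 (2.05 ± 0.30, edgeR adjusted p = 6.8e-05). MYD88, an adaptor of Toll-like receptors, rose by 0.41 ± 0.13 (edgeR adjusted p = 0.019). Of 13 negative regulators tested, 6 rose and 2 fell, against the same shares of all genes. SOCS1, the feedback inhibitor of JAK kinases, read 0.0377, 0.135 and 0.0484 CPM with shRenilla, 4.26, 3.08 and 3.61 CPM with shSS18-SSX1-1 and 5.0, 4.37 and 4.21 CPM with shSS18-SSX1-2 (5.70 ± 0.31, edgeR adjusted p = 5.1e-09). TNFAIP3 rose by 1.60 ± 0.14 (edgeR adjusted p = 6.5e-07) and SOCS3 by 0.65 ± 0.08 (edgeR adjusted p = 1.8e-05). TMEM173 and SOCS1 had hardly any reads with shRenilla and entered the test through the knockdown libraries, where they are higher. The counts of genes that rose in both lists are therefore a description only.

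Of 6 endothelial markers, 2 had enough reads for a test with knockdown. TEK, at 0 in all shRenilla libraries, read 0.589, 0.918 and 0.944 CPM with shSS18-SSX1-1 and 1.05, 1.69 and 1.54 CPM with shSS18-SSX1-2, and CLDN5 had a log2 change of -0.73 ± 0.23 (edgeR adjusted p = 0.018), a call lost without shRenilla replicate 1 or 3. Both were chosen after their values were seen. The 6 markers summed to 3.81 to 6.72 CPM with shRenilla and 2.75 to 7.80 CPM in the knockdown libraries, with 5 and then 2 to 3 of them at 0, and the 13 leukocyte and plasmacytoid dendritic cell markers to 0.359 to 0.566 CPM and 0.906 to 1.57 CPM, with 6 to 10 and then 7 to 9 at 0. Their part in the rise of the members was not tested.

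**Figure D5:**
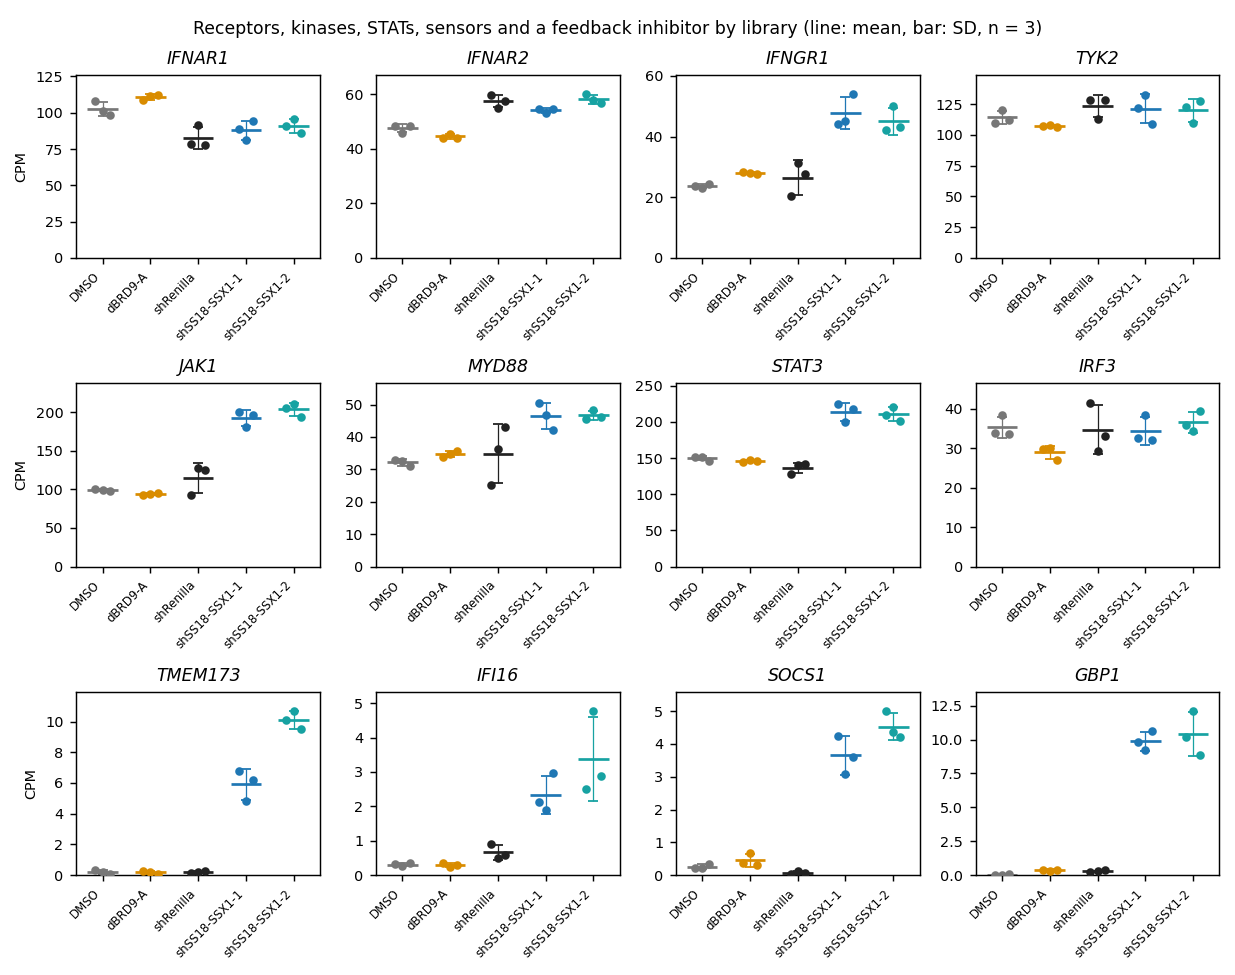
CPM (vertical axes, from 0, one scale for each gene) of 12 genes of interferon signalling and sensing in the 3 libraries of each group (points), with the mean (line) and SD (bar). IFNAR1, IFNAR2, TYK2 and IRF3 overlap between shRenilla and knockdown, while TMEM173, SOCS1 and GBP1 are higher in all 6 knockdown libraries.

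The change with knockdown was described against the promoter sequences shown above. Among members with a promoter entry, the 22 tested that hold the ISRE core had a median log2 change of 2.16, with 21 rising, and the 11 tested without it a median of 1.65, with all 11 rising. XAF1, SAMD9L, OAS1 and IRF9 are among those without a core in this window. PARP14 and IFI44 each hold 1 core upstream of the start, and PARP14 rose 1.58-fold while IFI44 was at least 27.9-fold higher. The stricter core GAAACNGAA was in 15 of 34 member promoters (44.1%) and in 1.87% of all promoters.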

How the data were processed

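RNA-seq of 15 HSSYII libraries in 5 groups of 3 was analysed. The deposited counts were made by the authors with STAR and featureCounts on hg19/GRCh37, one row per RefSeq transcript, per the labels' processing notes and the study's methods. Their versions, the strand setting and the handling of multi-mapping reads were not stated, so overlapping genes and paralogs may share reads. In the dBRD9-A replicate 2 table some symbols were split across columns as deposited by the authors, and the final number of the line was taken. Rows were joined by transcript, and the row with the highest total represented each symbol.

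Tests used edgeR 4.0.16 in R 4.3.3 (TMM, filterByExpr with a minimum count of 10, robust quasi-likelihood, Benjamini-Hochberg adjusted p under 0.05 over all genes tested), in 3 fits: DMSO and dBRD9-A, the 9 lentiviral libraries, and all 15 for the control states and the difference of effects. The study used a DESeq test, and DESeq2 1.42.0 and limma 3.58.1 were alternatives, with other scalings, no filter, summed rows, a fold above 1.5, a replicate block and each library left out. The study also added spike-in control RNA to normalise expression to cell number. The count tables hold no spike-in row, so every scaling used here gives levels relative to the other genes. A shift shared by most genes would not be seen, and the shares of all genes are on that relative scale. The fits were tested on simulated data with 200 changed genes.

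The members and lists were chosen with earlier results of these data known. Values in every library were given for the 2 members with the highest mean CPM of each role and for those whose call depends on the hairpin or a library or differs between dBRD9-A and knockdown, which takes in most members. Named beside them are JAK1, TYK2, IFNAR1, IFNAR2, IRF3, IFNB1, BRD9, SS18, SSX1 and up to 3 members of each pathway list with the smallest adjusted p with knockdown and a mean of at least 1 CPM. One gene that this rule names is not reported here.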

Additional observations from a re-analysis of the deposited data

Results flagged for a closer look

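For 32 of the 42 members the effect of dBRD9-A on the log2 scale differed from that of SS18-SSX1 knockdown by the test of the difference itself (edgeR quasi-likelihood test, adjusted p under 0.05), which is why they are listed here. Each value is the effect of dBRD9-A minus the effect of knockdown, and all are negative. Among the sensors it was -1.67 for DDX58, -4.59 for IFIH1, -1.22 for DHX58 and -0.97 for DDX60. Among the transcription factors it was -0.39 for STAT2, -0.74 for IRF1, -1.97 for IRF7 and -1.45 for IRF9. In the IFIT family it was -2.99 for IFIT1, -3.24 for IFIT2, -2.39 for IFIT3 and -0.80 for IFIT5. For the membrane proteins the differences were -4.45 for IFITM1, -2.80 for IFITM2, -2.23 for IFITM3 and -4.55 for BST2. In the double-stranded RNA group they were -5.43 for OAS1, -7.40 for OAS2, -0.69 for OAS3 and -0.32 for EIF2AK2, and for MX1 the value was -4.66. In the ISG15 system they were -2.16 for ISG15 and -3.61 for HERC6. The other effectors gave -3.84 for CMPK2, -2.56 for TRIM22, -2.09 for SAMD9 and -3.11 for SAMD9L. The PARP family gave -0.92 for PARP9, -0.50 for PARP12 and -0.84 for PARP14. IFI6 stood at -3.99 and LGALS3BP at -1.83. Values for OAS1, OAS2, IFITM1, HERC6, CMPK2 and SAMD9L rest on at most 7 reads in a DMSO or dBRD9-A library, and that for TRIM22 on 4 to 14. Those genes entered the fit through the lentiviral libraries, where they are higher. The 2 experiments differ in time, delivery and target, which cannot be told apart.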

How the results depend on the processing

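With knockdown, 39 to 40 members rose when any 1 library was left out (38 to 40 with shSS18-SSX1-1 and 38 to 41 with shSS18-SSX1-2), and over both hairpins ISG20 and IFI35 were the members lost and IFI44L the one gained. With shSS18-SSX1-1, IFI35 was also gained without shRenilla replicate 1 and ISG20 without shSS18-SSX1-1 replicate 1. With dBRD9-A, DESeq2 called 1 member higher and 2 lower, a fold above 1.5 left 1 higher and 0 lower, and leaving out a library gave 1 to 3 higher and 3 to 4 lower, LGALS3BP being the one gained. Between the hairpins, DESeq2 and the test without a filter on low counts each called 4 members higher, and leaving out a library gave 0 to 1. Over all genes, 21 differed between the hairpins, against 146 with DESeq2, 123 without the filter, and 112 and 88 without shRenilla replicate 1 or 2. Between the controls, a fold above 1.5 left 2 members lower (9.77% of all genes tested), and leaving out a library gave 15 to 20 higher and 3 to 4 lower. The difference of effects passed for 29 to 32 members when a library was left out, and OAS1, OAS2, IFITM1, CMPK2, HERC6, SAMD9L and EIF2AK2 were lost in at least 1 of those fits. The stricter ISRE core was in 15 promoters.

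The sign of 2 values near 0 that had passed no test turned: IRF3 with knockdown was -0.0147 with the rows of a gene summed and -0.0783 to 0.1851 without 1 library, and TYK2 was -0.0904 to 0.0034 without 1 library. The causes were not tested. Same-numbered replicates did not consistently deviate together (correlations of -0.61 to 0.46). In some cases the same number correlated best and in others a different one, so the numbers were not used as pairs in the main fits. With the replicate number as a block, 39 members rose with knockdown, ISG20 being lost, and the counts for dBRD9-A stayed at 2 higher and 4 lower. Depth limits OASL, MX2, RSAD2, IFI44 and IFI44L, whose control levels rest on at most 2 reads.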

Other observations

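Further interferon-induced genes outside the 43 were also higher with knockdown. Of 41 listed, 35 were tested, 28 rose and 1 (PNPT1, an RNA-degrading exonuclease) fell, with a median log2 change of 0.59. Of all genes tested, 22.5% rose and 22.1% fell. APOL6, an apolipoprotein L, read 0.0377, 0.0448 and 0.145 CPM with shRenilla, 2.45, 2.11 and 1.89 CPM with shSS18-SSX1-1 and 3.50, 3.94 and 2.62 CPM with shSS18-SSX1-2 (log2 change 5.10 ± 0.36, edgeR adjusted p = 7.1e-08). UBA7, the activating enzyme for ISG15, rose by 1.41 ± 0.14 (edgeR adjusted p = 1.7e-06), and TRIM38 by 1.49 ± 0.15 (edgeR adjusted p = 3.0e-06). A gene with hardly any reads in the controls, such as APOL6, enters the test only when it is higher with knockdown. The 35 tested are therefore not a sample of the list, and their count is a description only. With dBRD9-A, 2 of 27 tested rose and 7 fell, against 17.7% and 18.2% of all genes tested.

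Of 17 genes typical of interferon gamma, 8 had enough reads for a test and all 8 rose with knockdown (22.5% of all genes tested). GBP1, a GTPase that attacks vacuoles of pathogens, read 0.226, 0.269 and 0.339 CPM with shRenilla, 9.78, 9.24 and 10.6 CPM with shSS18-SSX1-1 and 10.2, 12.1 and 8.88 CPM with shSS18-SSX1-2 (log2 change 5.17 ± 0.21, edgeR adjusted p = 2.5e-10). ICAM1, an adhesion molecule, read 28.0, 24.8 and 28.7 CPM with shRenilla, 60.4, 55.9 and 54.3 CPM with shSS18-SSX1-1 and 64.7, 66.4 and 65.9 CPM with shSS18-SSX1-2 (log2 change 1.15 ± 0.08, edgeR adjusted p = 3.0e-08) and fell with dBRD9-A (log2 change -0.30 ± 0.06, edgeR adjusted p = 8.2e-05). With dBRD9-A only 2 of the 17 were tested: 1 rose, with a log2 change of 1.22, and ICAM1 fell. Of all genes tested with dBRD9-A, 17.7% rose and 18.2% fell. The 17 genes include ones with hardly any reads in the controls, so the 8 tested with knockdown are not a sample of the list.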
